A study of Mus musculus with 10 samples.

Results

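The genes of the CD3 complex and the T cell coreceptors were followed in tumor-draining lymph nodes (TDLNs) of mice: the CD3 chains Cd3d (ENSMUSG00000032094), Cd3e (ENSMUSG00000032093) and Cd3g (ENSMUSG00000002033), the zeta chain Cd247 (ENSMUSG00000005763), the coreceptors Cd4 (ENSMUSG00000023274), Cd8a (ENSMUSG00000053977) and Cd8b1 (ENSMUSG00000053044), and the surface glycoproteins Cd2 (ENSMUSG00000027863), Cd5 (ENSMUSG00000024669) and Thy1 (ENSMUSG00000032011). They were chosen by name with earlier results of these data known. They are parts of the T cell receptor complex and its companions on the T cell surface, and 10 of the 33585 genes in the deposited tables. All 10 were found and all 10 were among the 13334 genes tested, those whose mean level reached 1 FPKM (fragments per kilobase of transcript, scaled to the mapped fragments of the library).

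The study asked how interfering with glycolysis changes the immune state of the TDLN after local tumor ablation. Wild-type female BALB/c mice carried tumors of 4T1, a mouse mammary carcinoma cell line, which were treated with microwave ablation (MWA). Mice of the MWA group (n = 5) then received PBS and mice of the MWA+2DG group (n = 5) received 2-deoxy-D-glucose, a glucose analogue that inhibits glycolysis, both by repeated intraperitoneal injection. The nodes were collected on day 15 and poly(A) RNA of the whole node was sequenced, with 1 library per mouse. All mice of both groups had a tumor and MWA, so no untreated or unablated node entered the comparison. In such bulk libraries, fewer T cells and less RNA of a gene per T cell cannot be told apart.

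The T cell receptor recognises peptide on MHC molecules but has almost no intracellular part of its own. It signals through the CD3 gamma, delta and epsilon chains and the zeta chain, whose cytoplasmic motifs are phosphorylated by the kinase Lck. CD4 on helper T cells binds MHC class II, the CD8 alpha and beta chains on cytotoxic T cells bind MHC class I, and both coreceptors bring Lck to the receptor. CD2 is an adhesion receptor, CD5 restrains receptor signaling and Thy1 is a glycolipid-anchored protein that marks mouse T cells.

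Cd3g, Cd3d and Cd3e are neighbours in the genome, with no other protein-coding gene between Cd3g and Cd3d or between Cd3d and Cd3e, and Cd3g and Cd3d are read in opposite directions away from each other. These 3 genes varied together across the libraries, as Thy1, Cd5 and Cd247 also did with Cd3e (Pearson r = 0.94, 0.94 and 0.90). The upstream sequences of the 3 neighbours are shown here. They are the RefSeq promoter windows of build GRCm38.p6, cut where the annotated gene begins: chr9:44980432-44980681 on the minus strand (250 bases), chr9:44981536-44981768 on the plus strand (233 bases) and chr9:45009664-45009861 on the minus strand (198 bases), each written 5′ to 3′ towards its gene. Capitals mark the letters AGGAAG or CTTCCT, a core bound by ETS factors, and CACCTG or CAGGTG, an E box, on either strand.
Cd3g: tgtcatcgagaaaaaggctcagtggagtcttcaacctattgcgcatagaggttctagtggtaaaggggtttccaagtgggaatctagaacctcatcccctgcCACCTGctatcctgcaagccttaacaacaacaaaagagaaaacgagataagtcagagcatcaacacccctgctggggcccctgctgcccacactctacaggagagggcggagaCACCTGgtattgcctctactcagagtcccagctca
Cd3d: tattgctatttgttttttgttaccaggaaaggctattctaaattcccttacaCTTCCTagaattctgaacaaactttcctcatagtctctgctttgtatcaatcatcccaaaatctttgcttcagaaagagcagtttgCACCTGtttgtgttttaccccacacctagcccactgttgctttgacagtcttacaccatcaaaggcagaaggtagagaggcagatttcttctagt
Cd3e: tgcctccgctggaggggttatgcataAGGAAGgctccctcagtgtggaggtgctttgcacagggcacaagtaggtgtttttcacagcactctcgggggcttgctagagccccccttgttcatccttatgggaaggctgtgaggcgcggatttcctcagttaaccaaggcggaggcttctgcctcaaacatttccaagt

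The Cd3g window held 2 E box matches and no ETS match. The Cd3d window held 1 ETS and 1 E box match, and the Cd3e window held 1 ETS match. None of the 3 held TGTGGT or ACCACA, a core bound by RUNX factors. Over the 250 bases before the start of all 32851 RefSeq promoters, 29.5% held the ETS letters, 17.2% the E box letters and 14.0% the RUNX letters, so matches of this kind are common. Within a window the marked matches do not overlap each other, and a match describes the letters and not binding. Of the 10 genes, 6 had an entry in the promoter table (Cd3g, Cd3d, Cd3e, Cd247, Cd8a and Cd5). Cd4, Cd8b1, Cd2 and Thy1 were not in it.

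The libraries of each group came in sets that the labels do not name. Liver transcripts separated replicates 1 and 2 of both groups from replicates 3 to 5 of both groups. Alb, the serum albumin gene, was at most 0.0486 FPKM in the 4 libraries of replicates 1 and 2 and between 35.1 and 102 FPKM in the 6 libraries of replicates 3 to 5. The first principal component of all tested genes (36.4% of the variance) also separated these sets. The sets hold both groups, so the comparison of the 10 genes and of their ratios was also made within them. B cell markers were high in all libraries, as the label of lymph node implies (12 of 12 tested, summed FPKM between 1593 and 1935). Summed FPKM was between 312143 and 359984 and the number of genes above 0 between 24289 and 25184. FPKM holds no read counts, so sequencing depth is unknown and no counting error can be given.

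**Figure D1:**
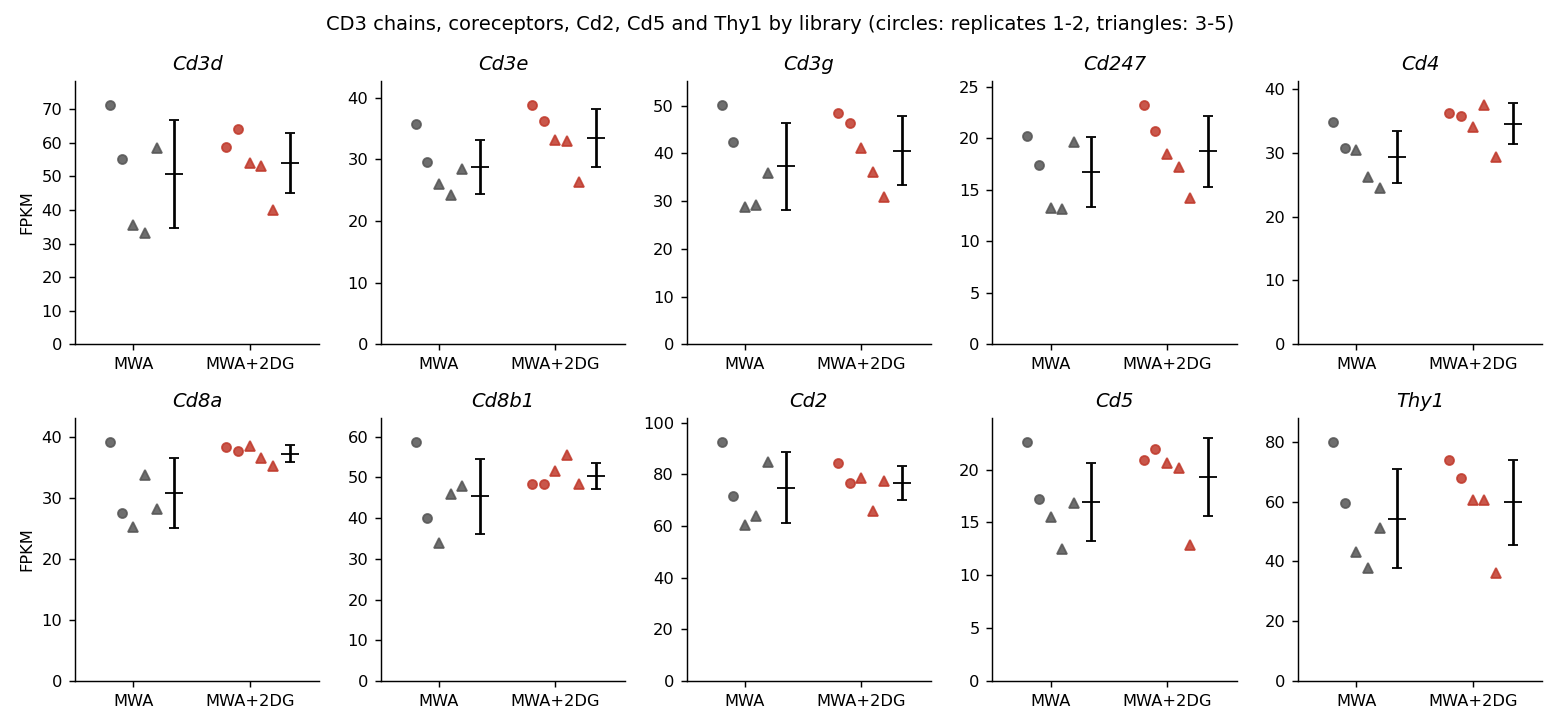
Level of each gene in FPKM (vertical axis, from 0) in the 5 MWA libraries (grey) and the 5 MWA+2DG libraries (red), with replicates 1 and 2 as circles, replicates 3 to 5 as triangles and the mean ± SD beside them. The MWA+2DG libraries of Cd8a lie between 35.3 and 38.6 FPKM, above 4 of the 5 MWA libraries, and no gene separates the groups completely.

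All 10 genes had a higher fitted mean in the MWA+2DG group, by 0.05 to 0.28 on the log2(FPKM + 1) scale (median 0.17, against 0.01 over all genes tested). Single libraries moved that median: it was 0.08 without MWA replicate 3 or 4, 0.28 without MWA replicate 1 and 0.27 without MWA+2DG replicate 5. Of all genes tested, 52.6% had a positive log2 fold change. The members share libraries and vary together, so 10 positive values are not 10 separate observations. The members were also chosen with earlier results of these data known, so counts over them are not independent of those results. By the study's rule (unadjusted limma P below 0.05 and a log2 fold change beyond 0.25), 1 of the 10 genes, Cd8a, was called higher, where 0.952% of all tested genes were, and 0 were called lower, where 1.87% of all tested genes were. The groups separated completely for 0 of the 10 genes, against 0.802% of all genes tested. After Benjamini-Hochberg adjustment over all genes, limma called 0 of the 10, and 0% of all 13334 genes. The count rests on scaling and on single libraries: rescaling every library to an equal sum gave 3 called higher (Cd3e, Cd4 and Cd8a), and 4 were called without MWA replicate 1 (Cd3e, Cd4, Cd8a and Cd8b1) and without MWA+2DG replicate 5 (Cd3e, Cd4, Cd8a and Cd5). Over all genes that rescaling turned 127 called higher and 249 lower into 328 higher and 159 lower. Of all genes, 200 were called higher without MWA replicate 1 and 222 without MWA+2DG replicate 5. At an unadjusted limma P below 0.05 there were 2 of the 10 (Cd8a and Cd4) and 567 of all.

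Cd8a, the alpha chain that occurs in both forms of CD8, differed most. Its 5 MWA libraries (replicates 1 to 5) held 39.3, 27.6, 25.2, 33.8 and 28.3 FPKM, and its MWA+2DG libraries held 38.4, 37.7, 38.6, 36.6 and 35.3 FPKM. Thus 4 of the 5 MWA libraries lay below every MWA+2DG library, and MWA replicate 1 lay above all of them. The mean level was 30.8 ± 5.69 FPKM in the MWA group and 37.3 ± 1.38 FPKM in the MWA+2DG group (SD, n = 5 each). The log2 fold change was 0.28 (SE 0.11, 95% interval 0.04 to 0.53), with a limma P of 0.0267 (adjusted p = 0.995) and a two-sided exact permutation p of 0.0556, where the smallest value that test allows is 0.00794. The difference had the same direction in replicates 1 and 2 (0.20) and in replicates 3 to 5 (0.34), and exchanging labels only within these sets gave an exact p of 0.05. Leaving out 1 library at a time moved the log2 fold change between 0.22 and 0.37 (limma P between 0.00201 and 0.0688), and Cd8a was no longer called without MWA replicate 2, 3 or 5 or without MWA+2DG replicate 1 or 3. The MWA libraries were also more scattered: the coefficient of variation of Cd8a was 18.4% in the MWA group and 3.69% in the MWA+2DG group, a difference in spread that was not tested.

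Cd8b1, the beta chain that pairs with Cd8a on conventional cytotoxic T cells, shared the scatter but less of the shift. It held 58.8, 40.1, 34.0, 45.8 and 48.0 FPKM in the MWA libraries and 48.4, 48.4, 51.6, 55.4 and 48.3 FPKM in the MWA+2DG libraries. As for Cd8a, 4 of the 5 MWA libraries lay below every MWA+2DG library and MWA replicate 1 lay above all of them. The coefficients of variation were 20.5% in the MWA group and 6.22% in the MWA+2DG group. The mean level was 45.3 ± 9.28 FPKM in the MWA group and 50.4 ± 3.14 FPKM in the MWA+2DG group (SD, n = 5 each), and the log2 fold change of 0.17 (SE 0.13) did not pass (limma P = 0.206, exact permutation p = 0.254). It came from replicates 3 to 5 (0.29), with replicates 1 and 2 at -0.0050.

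Cd4, the coreceptor of helper T cells, held 34.8, 30.8, 30.4, 26.2 and 24.5 FPKM in the MWA libraries and 36.2, 35.8, 34.0, 37.5 and 29.3 FPKM in the MWA+2DG libraries. Only MWA+2DG replicate 5 and, by a small margin, MWA+2DG replicate 3 fell within the MWA range. The MWA libraries averaged 29.4 ± 4.07 FPKM and the MWA+2DG libraries 34.5 ± 3.21 FPKM (SD, n = 5 each). The log2 fold change was 0.23 (SE 0.11, 95% interval 0.00 to 0.46), with a limma P of 0.0489, an adjusted p of 0.995 and an exact permutation p of 0.0794, and it lay below the fold change the study's rule asks for. It was 0.13 in replicates 1 and 2 and 0.30 in replicates 3 to 5. With 1 library left out, the limma P of Cd4 was above 0.05 in 8 of 10 fits (at most 0.110) and stayed below only without MWA replicate 1 or MWA+2DG replicate 5, and a pseudocount of 0.1 also brought it above (P = 0.0557, where the exact test of the reported fit gave 0.0794). The ratio of Cd4 to Cd8a, given further on, compares the coreceptors within a library.

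Among the CD3 chains, Cd3e, whose product pairs with both CD3 gamma and CD3 delta, had the highest log2 fold change. It held 35.7, 29.6, 26.0, 24.2 and 28.4 FPKM in the MWA libraries and 38.8, 36.2, 33.1, 33.0 and 26.4 FPKM in the MWA+2DG libraries, so 2 MWA+2DG libraries exceeded every MWA library. The log2 fold change was 0.21 (SE 0.12, 95% interval -0.06 to 0.48, limma P = 0.112, exact permutation p = 0.127). It was alike in both sets, 0.20 in replicates 1 and 2 and 0.22 in replicates 3 to 5, and exchanging labels within the sets gave an exact p of 0.05.

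The other chains of the complex overlapped more. Cd3d held 71.3, 55.2, 35.5, 33.2 and 58.4 FPKM in the MWA libraries and 58.7, 64.0, 54.1, 53.2 and 39.9 FPKM in the MWA+2DG libraries, which average 50.7 ± 16.1 FPKM and 54.0 ± 8.97 FPKM in turn (SD, n = 5 each). MWA replicate 1 was its highest library and MWA replicates 3 and 4 its lowest, so the MWA group held both ends of the range (log2 fold change 0.13, SE 0.21, limma P = 0.551, exact permutation p = 0.635). Cd3g ranged from 28.7 to 50.2 FPKM in the MWA group (median 35.9) and from 30.8 to 48.5 FPKM in the MWA+2DG group (median 41.2), with a log2 fold change of 0.13 (limma P = 0.460, exact permutation p = 0.500). Cd247, the zeta chain that carries most of the signaling motifs, held 20.2, 17.5, 13.2, 13.2 and 19.6 FPKM in the MWA libraries and 23.2, 20.7, 18.5, 17.2 and 14.2 FPKM in the MWA+2DG libraries. Its groups overlapped over most of their range, and the log2 fold change was 0.16 (SE 0.16, limma P = 0.329, exact permutation p = 0.373).

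Thy1 and Cd5 followed the CD3 chains in which libraries were high. Thy1 held 80.0, 59.3, 43.1, 37.8 and 51.2 FPKM in the MWA libraries and 73.8, 67.7, 60.5, 60.5 and 36.2 FPKM in the MWA+2DG libraries. Its highest library was MWA replicate 1 and its lowest MWA+2DG replicate 5, and the log2 fold change of 0.15 (SE 0.23, limma P = 0.528, exact permutation p = 0.563) was smaller than its error. Cd5 held 22.7, 17.2, 15.5, 12.4 and 16.9 FPKM in the MWA libraries and 21.0, 21.9, 20.6, 20.2 and 12.8 FPKM in the MWA+2DG libraries. In the MWA+2DG group 4 libraries lay close together and replicate 5 far below them, and the log2 fold change was 0.18 (limma P = 0.311, exact permutation p = 0.397). Cd2 differed least of the 10, with 60.4 to 92.6 FPKM (median 71.8) in the MWA group, 65.9 to 84.4 FPKM (median 77.6) in the MWA+2DG group and a log2 fold change of 0.05 (limma P = 0.692, exact permutation p = 0.714).

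**Figure D2:**
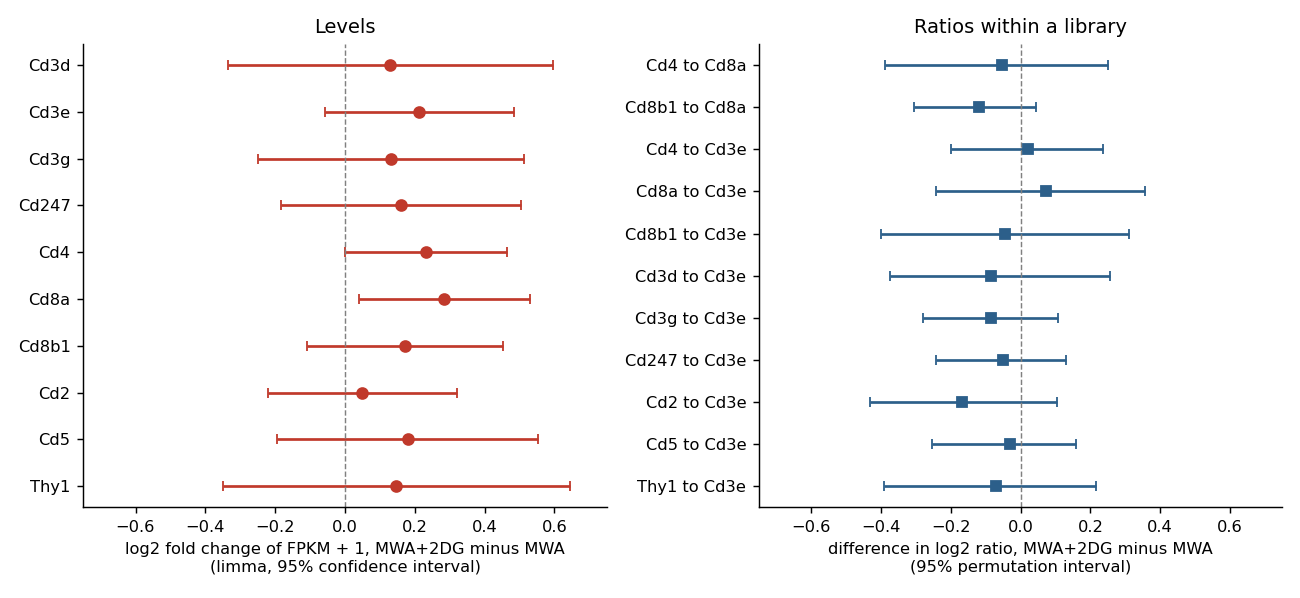
Left, limma log2 fold change of FPKM + 1 (MWA+2DG minus MWA) with its 95% confidence interval for each gene. Right, difference in the log2 ratio of 2 genes within a library, with its 95% permutation interval. On the left all 10 points lie above 0 and the intervals of Cd8a and Cd4 alone exclude it, and on the right all 11 intervals shown include 0.

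Levels per transcript length put Cd2 first (mean of 10 libraries 75.7 FPKM), followed by Thy1 (57.0), Cd3d (52.3), Cd8b1 (47.9), Cd3g (38.9), Cd8a (34.1), Cd4 (31.9), Cd3e (31.1), Cd5 (18.1) and Cd247 (17.7). Of the neighbours in this order, Cd2 was above Thy1 and Cd3e above Cd5 in 10 of 10 libraries. The other neighbouring pairs kept their order in 5 to 8 of 10 libraries, so their places are not settled by these data. Cd4 exceeded Cd3e in 6 and Cd5 exceeded Cd247 in 5 of 10.

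Ratios within a library do not depend on how the library was scaled, and they ask whether one T cell gene changed relative to another. The Cd4 to Cd8a ratio, a readout of helper against cytotoxic T cell transcripts, was 0.886, 1.12, 1.21, 0.775 and 0.867 in the MWA libraries and 0.943, 0.947, 0.881, 1.02 and 0.828 in the MWA+2DG libraries. The MWA+2DG values all lay inside the MWA range. The means were 0.970 ± 0.183 and 0.925 ± 0.0742 (SD, n = 5 each), a difference of -0.05 in log2 ratio (95% permutation interval -0.39 to 0.25, exact permutation p = 0.667, adjusted over 12 ratios p = 0.823). The difference was -0.07 in replicates 1 and 2 and -0.04 in replicates 3 to 5. The interval leaves room for a shift of either sign, so the test does not show that the ratio stayed the same.

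Relative to Cd3e, the coreceptors did not differ between the groups beyond their spread. Cd4 to Cd3e was 1.03 ± 0.116 in the MWA group and 1.04 ± 0.0842 in the MWA+2DG group (SD, n = 5 each), a log2 difference of 0.02 (interval -0.20 to 0.23, exact permutation p = 0.833). Cd8a to Cd3e was 1.10, 0.932, 0.970, 1.40 and 0.995 in the MWA libraries and 0.990, 1.04, 1.16, 1.11 and 1.34 in the MWA+2DG libraries. The ranges of Cd8a to Cd3e overlapped almost wholly (log2 difference 0.07, interval -0.24 to 0.36, exact permutation p = 0.548). Leaving out MWA+2DG replicate 5 brought it to 0.0097, and leaving out MWA replicate 4 brought it to 0.17 (exact permutation p = 0.119). Cd8b1 to Cd3e differed by -0.04 (interval -0.40 to 0.31, exact permutation p = 0.730), and against Cd3d or Cd3g in place of Cd3e this difference changed sign to 0.04.

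**Figure D3:**
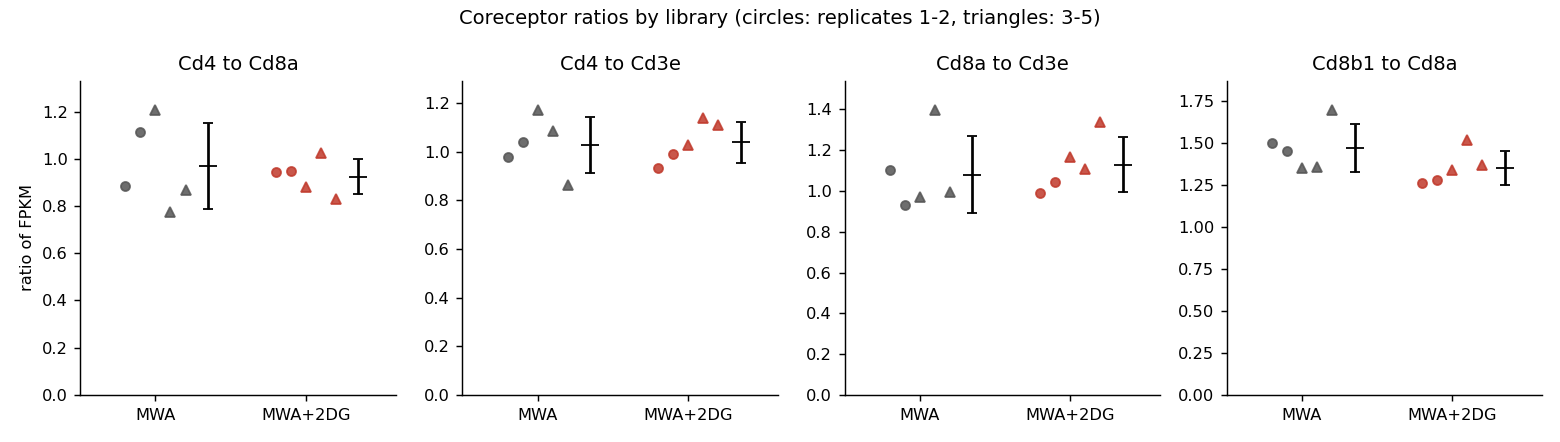
Ratio of FPKM values (vertical axis, from 0) of 2 genes in each MWA library (grey) and each MWA+2DG library (red), with replicates 1 and 2 as circles, replicates 3 to 5 as triangles and the mean ± SD beside them. The Cd4 to Cd8a ratios of the MWA+2DG libraries, 0.828 to 1.02, lie inside the range of the MWA libraries, 0.775 to 1.21.

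Within CD8, the Cd8b1 to Cd8a ratio was 1.50, 1.45, 1.35, 1.35 and 1.70 in the MWA libraries and 1.26, 1.28, 1.34, 1.52 and 1.37 in the MWA+2DG libraries. In the MWA+2DG group 3 libraries lay below every MWA library, and the log2 difference was -0.12 (interval -0.31 to 0.04, exact permutation p = 0.183). Cd8a without the beta chain is also made by some dendritic cells. Markers of type 1 conventional dendritic cells (8 found, 7 tested, 0 called in either direction) summed to between 102 and 119 FPKM in the MWA group and between 98.9 and 131 FPKM in the MWA+2DG group, with Xcr1 between 1.33 and 2.92 FPKM. Irf8 (55.3 to 88.1 FPKM) and Wdfy4 (18.5 to 31.2 FPKM) made up most of each sum. MWA+2DG replicate 5 had the highest sum, Irf8 and Tlr3, but the lowest Xcr1, Clec9a, Itgae and Cadm1. The part of dendritic cells in the Cd8a values was not tested.

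Of the remaining ratios to Cd3e none passed the test over all 10 libraries. Cd2 to Cd3e was lower in the MWA+2DG group by 0.17 in log2 ratio (interval -0.43 to 0.10, exact permutation p = 0.190). This difference became -0.26 when MWA+2DG replicate 5 was left out, with an exact permutation p of 0.0317, and it was -0.12 without MWA replicate 5. The 5 ratios of Cd3d, Cd3g, Cd247, Cd5 and Thy1 to Cd3e differed by -0.09 to -0.03, with exact permutation p between 0.333 and 0.754.

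Over the 12 B cell markers tested, 0 were called in either direction, 0 had a positive log2 fold change and the median was -0.09. The part of B cells in the Cd2 values was not tested.

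Across the 10 libraries, levels of most of the 10 genes varied together. Over 11 relations on log2(FPKM + 1), Cd3e correlated with Thy1 (Pearson r = 0.94, Spearman rho = 0.92, permutation p = 8.0e-05 and 0.00046, adjusted p = 0.000605 and 0.00134) and with Cd5 (r = 0.94, rho = 0.94, permutation p = 0.00011 and 0.00013). Without the 2 libraries farthest from the median Cd3e level, r was 0.92 for Thy1 and 0.95 for Cd5. The other CD3 chains followed, with r = 0.92 for Cd3g, 0.90 for Cd247 and 0.85 for Cd3d (rho 0.92, 0.92 and 0.84, adjusted permutation p of r at most 0.00247). Cd3d, Cd3e, Cd3g, Cd247, Cd5 and Thy1 also kept this relation within the 6 libraries of replicates 3 to 5, where r with Cd3e was between 0.78 and 0.95. The 4 libraries of replicates 1 and 2 are too few for a correlation.

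Over all 10 libraries the coreceptors and Cd2 followed Cd3e less closely. Cd4 had r = 0.81 and rho = 0.79 with Cd3e (permutation p = 0.00479 and 0.00877, adjusted p = 0.00753 and 0.0138), and r was 0.73 without the 2 farthest libraries. Cd8a had r = 0.64 and rho = 0.76 (permutation p = 0.0497 and 0.0149, adjusted p = 0.0683 and 0.0206). Cd8b1 had r = 0.55 (rho 0.70) and Cd2 r = 0.60 (rho 0.58), with adjusted permutation p of r of 0.0949 and 0.0775. Without the 2 libraries farthest from the median Cd3e level, r with Cd3e was 0.75 for Cd8a, 0.69 for Cd8b1 and 0.42 for Cd2. Cd8a and Cd8b1, which are neighbours in the genome, had r = 0.84 and rho = 0.92 with each other (permutation p = 0.00133 and 0.00059, adjusted p = 0.00247 and 0.00134), but r was 0.48 without the 2 libraries farthest from the median Cd8a level, so the linear relation rests in part on those libraries. Cd4 and Cd8a had r = 0.61 and rho = 0.60 (permutation p = 0.0610 and 0.0735, adjusted p = 0.0745 and 0.0809). Whether the correlations differ from each other was not tested.

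**Figure D4:**
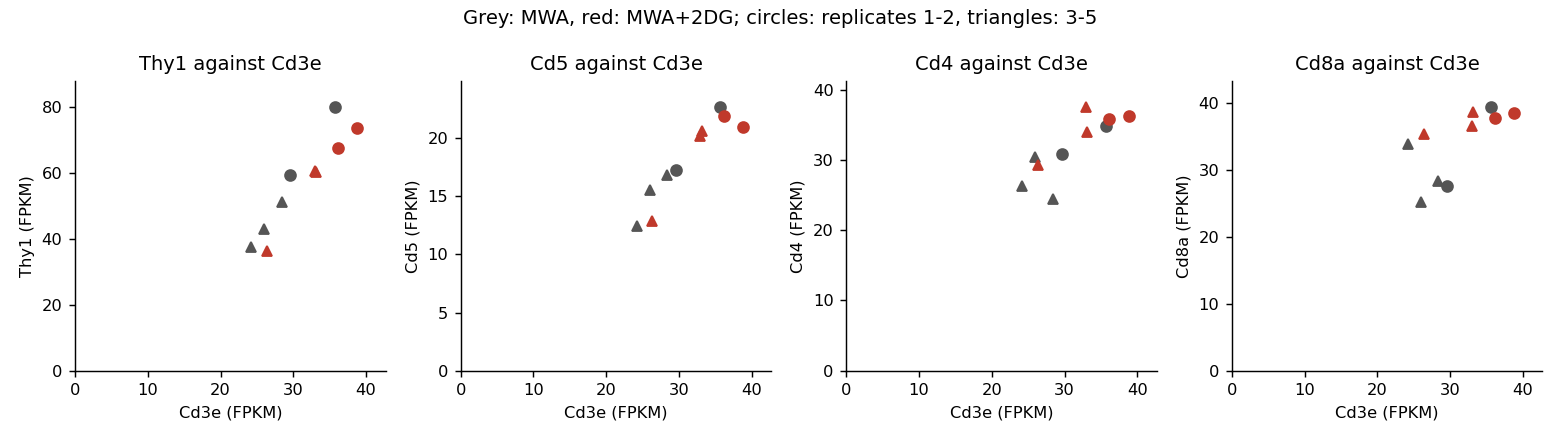
Level of Thy1, Cd5, Cd4 and Cd8a (vertical axes, FPKM) against Cd3e (horizontal axis, FPKM) in the 10 libraries, MWA in grey and MWA+2DG in red, replicates 1 and 2 as circles and 3 to 5 as triangles. Thy1 and Cd5 lie along a line (r = 0.94 each on the log scale), while Cd8a is scattered (r = 0.64), with MWA replicate 4 and MWA+2DG replicate 5 high for their Cd3e. Without the 2 libraries farthest from the median Cd3e level, r for Cd8a was 0.75.

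The replicate sets moved with these levels. All 10 genes had a higher mean in replicates 1 and 2 than in replicates 3 to 5, over both groups. Thy1 was 70.2 ± 8.83 FPKM (SD, n = 4) against 48.2 ± 10.9 FPKM (SD, n = 6), Cd3d 62.3 ± 6.98 against 45.7 ± 10.8 FPKM, and Cd3g 46.9 ± 3.33 against 33.6 ± 4.87 FPKM. The sets were closer for Cd8a, at 35.8 ± 5.48 against 33.0 ± 5.16 FPKM, and for Cd8b1, at 48.9 ± 7.66 against 47.2 ± 7.28 FPKM. The sets were found in the data, so these differences are given without a test. With replicates 3 to 5 alone the median log2 fold change of the 10 genes was 0.22 and 1 gene was called higher (Cd8a, 0.34). In that fit 168 of all genes were called higher. With replicates 1 and 2 alone the median was 0.08 and 0 of the 10 genes were called, where 371 of all genes were called higher and 290 lower. In this fit Cd3d (-0.03), Cd8b1 (-0.0050) and Cd2 (-0.02) turned below 0.

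Summed markers of NK cells were highest in MWA replicate 4 and MWA+2DG replicate 5, in which Cd8a was high for its Cd3e. The 9 NK markers found summed to 125 FPKM in MWA replicate 4 and 183 FPKM in MWA+2DG replicate 5, against 51.6 to 107 FPKM in the other 8 libraries, and Gzma, a granule protease of NK and cytotoxic T cells, was 55.5 and 87.6 FPKM there. In both libraries Gzma and Nkg7 (36.4 and 54.6 FPKM) made up most of the sum. Those libraries had the highest Cd8a to Cd3e ratios, 1.40 and 1.34, and the lowest Cd5 levels, 12.4 and 12.8 FPKM. Elsewhere the order differed. MWA replicate 5 had an NK sum of 107 FPKM and a Cd8a to Cd3e ratio of 0.995, and MWA+2DG replicate 3 had 61.9 FPKM and 1.16. Of the NK markers 6 were tested, 0 were called in either direction between the groups, and Klra8 was below 0.1 FPKM in all libraries. The part of NK cells in the Cd8a, Cd2 and Thy1 values was not tested. MWA+2DG replicate 5 also held the highest sum of adipose tissue markers (66.4 FPKM, 4.48 to 39.1 in the other libraries), of epithelium and 4T1 carcinoma markers (11.7 FPKM, 2.05 to 5.92) and of other dendritic cell markers (738 FPKM, 302 to 418). The last sum rests on Bst2, an interferon-induced surface protein, at 518 FPKM. Of the others on that list Itgax (8.30) and Sirpa (39.8) were highest in that library. Flt3 (2.46), Cd209a (0.939), Ccl22 (18.1) and Siglech (2.57) were lowest there. Between the groups the 4 adipose markers tested all had positive log2 fold changes (median 0.89, 0 called), with sums of 8.75 ± 3.01 FPKM in the MWA group and 26.9 ± 25.9 FPKM in the MWA+2DG group (SD, n = 5 each), and their part in the members' values was not tested. The liver markers summed to 29.1 to 34.4 FPKM in replicates 1 and 2 and 96.4 to 220 FPKM in replicates 3 to 5, and their part was not tested either. In replicates 1 and 2 most of the sum was Serpina1a, which did not separate the sets (21.8 to 30.4 FPKM over all libraries).

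**Figure D5:**
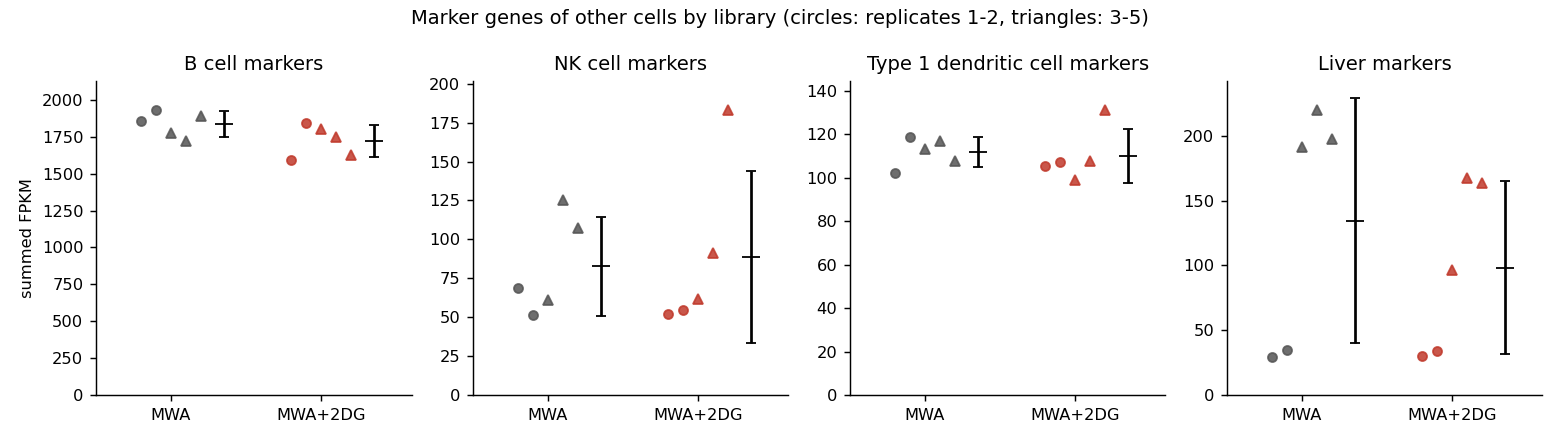
Summed FPKM (vertical axes, from 0) of marker genes of B cells, NK cells, type 1 dendritic cells and liver in each MWA library (grey) and MWA+2DG library (red), with replicates 1 and 2 as circles, replicates 3 to 5 as triangles and the mean ± SD beside them. NK markers are highest in MWA+2DG replicate 5 (183 FPKM), and liver markers are high only in replicates 3 to 5 of both groups.

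The genes whose profile was most like the mean of Cd3d, Cd3e and Cd3g were listed as a description, by Pearson r over the 10 libraries among the 13324 tested genes outside the 10. Trbc2, a constant region of the T cell receptor beta chain, came first (r = 0.992, mean 375 FPKM). It was followed by Trbj2-1 and Trbv13-3 (0.969 each), Lsp1 (0.964), Itm2a (0.959), Actr1a (0.957), Acy1 (0.957), Trbv13-2 (0.955), Lat (0.954) and Trbc1 (0.952). Of these 10 genes 5 are segments of the T cell receptor beta locus, which can share reads with each other, and Lat is the adaptor that Zap70 phosphorylates below the receptor. By the same measure Thy1 had r = 0.962 and Cd5 0.922, while Cd2 had 0.735, Cd4 0.646, Cd8b1 0.567 and Cd8a 0.536. The log2 fold change between the groups was 0.14 for Trbc2 and 0.15 for Trbc1, against 0.13 for Cd3d and Cd3g.

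Of the T cell receptor constant regions, 7 were tested and 0 were called in either direction, with a median log2 fold change of 0.04. The 3 of smallest limma P were Tcrg-C4 (-0.24, exact permutation p = 0.159), Tcrg-C1 (-0.23, exact p = 0.373) and Trac (0.15, exact p = 0.365), the constant regions of 2 gamma chains and of the alpha chain. Gamma-delta T cells carry the same CD3 complex. Of their markers 5 were tested and 0 were called, with a summed level between 44.3 and 73.9 FPKM. Most of that sum was Blk (39.9 to 65.9 FPKM), which is also on the list of B cell markers. No other marker of the gamma-delta list exceeded 3.67 FPKM, so the sum is not a level of these cells.

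Kinases and adaptors pass the signal on from the T cell receptor. Of 30 tested, 6 were called higher by the study's rule (0.952% of all tested genes were) and 0 lower, 26 had a positive log2 fold change, and the median was 0.14 against 0.01 over all genes. The list was chosen with earlier results of these data known, so these counts are not independent of them. Among those called were Prkcq, a protein kinase C that acts below the receptor in T cells (10.8 ± 2.37 FPKM in the MWA group and 15.0 ± 2.12 in the MWA+2DG group, log2 fold change 0.45), Trat1 (5.95 ± 0.904 and 7.90 ± 1.31, 0.35), Grap2 (28.5 ± 4.36 and 35.3 ± 5.50, 0.30), Themis (2.76 ± 0.325 and 3.53 ± 0.658, 0.26) and Txk (2.58 ± 0.433 and 3.27 ± 0.358, 0.26), with n = 5 each. Txk is a kinase, and Trat1 and Grap2 are adaptors. Fyb, an adaptor that links the receptor to integrins, was higher in all 5 MWA+2DG libraries than in any MWA library (19.3 ± 1.71 and 23.1 ± 2.01 FPKM, exact permutation p = 0.00794, the smallest the test allows), yet its log2 fold change of 0.25 did not pass the rule. None of these had an adjusted limma p below 0.05 (0.995 each).

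Other T cell surface receptors and the ligands were not called. Of 16 other receptors tested 0 were called in either direction, with a median of 0.13, and the 3 of smallest limma P were Cd226 (0.24, exact permutation p = 0.0317), Cd28 (0.23, exact p = 0.0952) and Il7r (0.28, exact p = 0.143). Of 9 ligands of the surface molecules tested, MHC genes among them, 0 were called and the median was -0.01. H2-Ab1 (-0.16, exact permutation p = 0.246) and H2-Eb1 (-0.15, exact p = 0.310), chains of the MHC class II molecules that CD4 binds, and H2-K1 (0.15, exact p = 0.516), of the MHC class I molecules that CD8 binds, had the smallest limma P.

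Among 12 cell division genes tested, 6 were called lower in the MWA+2DG group by the study's rule (1.87% of all tested genes were), 0 were called higher and 0 had an adjusted limma p below 0.05. The median log2 fold change was -0.27. This list was chosen with earlier results of these data known, so its count is not independent of them. Rescaling to an equal sum cut the genes called lower over all genes from 249 to 159. Cdk1, the kinase that drives mitosis, was 9.14 ± 0.712 FPKM in the MWA group and 6.79 ± 0.847 FPKM in the MWA+2DG group (SD, n = 5 each, log2 fold change -0.38, exact permutation p = 0.00794). The others called lower were Ccnb2 (-0.44), Ccnb1 (-0.35), Birc5 (-0.34), Bub1 (-0.33) and Ccna2 (-0.28). Marker genes called lower, named here after their values were seen, were 2 of 7 of plasma cells (Mzb1 and Xbp1), 2 of 4 of neutrophils (S100a8 and S100a9), 2 of 9 of macrophages and monocytes (Lyz2 and Csf1r) and 1 of 11 of other dendritic cells (Clec10a). FPKM values are shares of each library's RNA, and the part of these lower genes in the higher T cell genes was not tested.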

How the data were processed

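Poly(A) RNA of 10 TDLNs was sequenced. The authors deposited FPKM per Ensembl gene, 1 table per library, made with HISAT2 and StringTie and ballgown. The submitters' processing notes name cutadapt 1.9, HISAT2 2.0.4, UMI-tools, StringTie 1.3.4d and mm9, without their roles, so coordinates printed here are those of the RefSeq table only. Depth is unknown. Of 33643 identifiers 33541 had a symbol, and values sharing a symbol were summed.

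FPKM was tested as log2(FPKM + 1) with limma 3.58.1 (R 4.3.3) over the 13334 genes averaging 1 FPKM or more, with Benjamini-Hochberg adjustment. The fit was tested on simulated data. For ratios the library labels were permuted exactly (two-sided), and correlations with 100000 permutations (scipy 1.17.1). The groups came from the sample labels. Alternatives were no filter, a filter of 5 FPKM, other pseudocounts and scalings, the replicate number as a block, each library left out and, added after the data were seen, the replicate sets alone. The members and lists were chosen with earlier results of these data known. Genes named outside the 10 are, per list, the 3 of smallest limma P and those called, and the 10 most like the CD3 chains, with marker genes named beside results they bear on. Among the called genes and the 12 ratios, 1 of each is not reported here.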

Additional observations from a re-analysis of the deposited data

Results flagged for a closer look

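Of 44 groups of 5 values examined, the levels and ratios of each group, 2 had 1 library far from the other 4, and chance flags about 1 in 20 groups. Both were low values in MWA+2DG replicate 5. Cd5 was 12.8 FPKM there, against 20.2 to 21.9 FPKM in the other 4 libraries of the group. The Thy1 to Cd3e ratio was 1.38 there, against 1.83 to 1.90 in the others. The same library held the highest summed NK and adipose tissue markers of the 10 (183 and 66.4 FPKM), and their part in these values was not tested.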

How the results depend on the processing

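All 10 genes kept a positive log2 fold change under every alternative fitted to all 10 libraries (filters, pseudocount, scalings, limma-trend, the block and the replicate set as a factor). Of the 110 values of log2 fold change under these and the replicate sets alone, 101 kept direction and side of the threshold, 4 were weaker (Cd4 with a pseudocount of 0.1 and in each replicate set alone, Cd8a in replicates 1 and 2 alone), 2 stronger (Cd3e, rescaled and with the set as a factor) and 3 reversed. Members called higher were 1, against 3 after rescaling to an equal sum (328 of all genes higher, 159 lower). They were 2 after quantile normalization (143 of all genes higher) and 0 in replicates 1 and 2 alone (371 of all genes higher). In replicates 3 to 5 alone 386 of all genes were lower. A filter of 5 FPKM gave 69 of all genes higher and 161 lower, against 127 and 249, over fewer genes. Rescaling moved the median of all genes to 0.07 and that of the members to 0.23. In replicates 1 and 2 alone Cd3d (-0.033), Cd8b1 (-0.0050) and Cd2 (-0.019) reversed, and the cause was not tested.

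With Cd3d in place of Cd3e as denominator, the log2 ratio difference reversed for Cd8b1 (0.041), Cd3g (0.0021), Cd247 (0.035), Cd5 (0.056) and Thy1 (0.016), and with Cd3g for Cd8b1 (0.039), Cd247 (0.033), Cd5 (0.054) and Thy1 (0.014).

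With 1 library left out, members called higher ranged from 0 to 4, genes called higher from 80 to 222 and lower from 177 to 315. The log2 fold change ranged from -0.021 to 0.13 for Cd2, -0.0043 to 0.27 for Cd3d, 0.031 to 0.31 for Thy1, 0.049 to 0.24 for Cd3g, 0.081 to 0.25 for Cd247, 0.082 to 0.31 for Cd5, 0.076 to 0.27 for Cd8b1, 0.16 to 0.29 for Cd3e and 0.17 to 0.30 for Cd4, with the lowest values without MWA replicate 3, 4 or 5 or MWA+2DG replicate 1 and the highest without MWA replicate 1 or MWA+2DG replicate 5. Of these Cd3e and Cd4 (both), Cd8b1 (without MWA replicate 1) and Cd5 (without MWA+2DG replicate 5) passed the rule there. The log2 ratio difference ranged from -0.13 to 0.031 for Cd4 to Cd8a, -0.040 to 0.070 for Cd4 to Cd3e, 0.0097 to 0.17 for Cd8a to Cd3e, -0.26 to -0.12 for Cd2 to Cd3e, -0.11 to 0.025 for Cd8b1 to Cd3e, -0.096 to 0.013 for Cd247 to Cd3e, -0.075 to 0.027 for Cd5 to Cd3e and -0.13 to 0.017 for Thy1 to Cd3e.

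The labels do not say whether the replicate numbers pair the libraries. Deviations of same-numbered libraries correlated by 0.0334 to 0.501, and 3 of 10 libraries correlated best with their own number. These values do not settle whether the libraries are paired. With the replicate block 1 member was called higher (Cd8a, 0.28), with 164 of all genes higher and 285 lower. Without read counts, depth sets no stated limit on these values, and the number of libraries limits their precision.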
